A study of Mus musculus with 23 samples.

Results

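The histone cluster genes of the mouse were followed here together with H1foo, the linker histone of the oocyte, and Npm2, the oocyte histone chaperone nucleoplasmin. The members were the genes whose symbol begins with Hist1h, Hist2h, Hist3h or Hist4h in both deposited count tables, plus H1foo and Npm2, which gave 72 genes of 56196. Of the 70 Hist genes, 56 belong to the Hist1 cluster, 10 to Hist2, 3 to Hist3 and 1 to Hist4. By protein they are 6 linker histone H1 genes, 20 H2A, 19 H2B, 12 H3 and 13 H4 genes, and 3 of them are annotated as pseudogenes.

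Poly(A) RNA was read in 23 mouse libraries, 8 from germinal vesicle (GV) oocytes, which are arrested in meiotic prophase, and 15 from embryos. The samples were labelled wild-type (WT) or Eif4enif1+/- (het below), heterozygous for Eif4enif1, which encodes the eIF4E transporter (4E-T), known as a partner of eIF4E that holds mRNA back from translation. No other allele or agent is named, and whether an embryo sample's genotype is its own or the mother's is not stated. Each GV oocyte sample gave a transcriptome (total mRNA) and a translatome (mRNA captured with ribosomes by RiboLace), with 2 libraries per genotype and fraction. Embryo groups had 3 libraries each: 1-cell embryos of either genotype with no treatment, 2-cell embryos of either genotype after 24 h of in vitro culture, and het embryos that remained at the 1-cell stage after that culture (arrested). The age of the animals, the nature of the Eif4enif1 allele and the number of oocytes or embryos per library are not stated by the sources used here. Stage and culture time change together between 1-cell and 2-cell samples and cannot be told apart. In bulk samples, fewer cells of a type and less RNA per cell cannot be told apart either.

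Replication-dependent histone genes sit in clusters, lack introns in most cases, and supply histones during DNA replication. Their mRNAs normally end in a conserved stem-loop in place of a poly(A) tail, and the stem-loop binding protein Slbp directs their processing and translation. A poly(A) library therefore sees only the adenylated share of these mRNAs. In oocytes, H1foo takes the place of somatic H1 in chromatin, Npm2 stores histones and opens sperm chromatin, and Hist1h2aa with Hist1h2ba encodes TH2A and TH2B, a variant pair found in testis and oocyte.

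The stem-loop is shown first because it defines the class of transcript that poly(A) selection handles poorly. An annotated transcript held the stem-loop consensus in 46 of the 70 Hist genes (65.7%), against 68 of 58797 protein-coding transcripts of the reference annotation (0.116%). The first share counts genes, pseudogenes included, and the second counts transcripts, those of Hist genes included. Some Hist genes without a match have short annotated transcripts (393 bases in Hist1h2ai, 381 in Hist1h2bl), and sequence past their ends was not searched. The annotated transcript went on for more than 100 bases past the stem-loop in 23 Hist genes. Neither H1foo nor Npm2 held one. Below, the 16-base stem-loop is in capitals with 7 transcript bases on each side, for 2 H2A genes that were high in 2-cell embryos, for an H4 gene and for the linker histone gene Hist1h1c.
Hist1h2ag: caacaaaGGCTCTTTTCAGAGCCacctaac
Hist1h2ac: acccaaaGGCTCTTTTCAGAGCCcccactt
Hist1h4i: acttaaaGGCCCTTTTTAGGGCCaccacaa
Hist1h1c: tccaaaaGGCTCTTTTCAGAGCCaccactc
These genes lie on mouse chromosome 13 (mm10), Hist1h2ag at chr13:22042460-22042944 on the minus strand, Hist1h2ac at chr13:23681467-23683948 (minus), Hist1h4i at chr13:22040636-22041362 (minus) and Hist1h1c at chr13:23738808-23740367 (plus). The sequence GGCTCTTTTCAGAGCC was shared by 26 members, and the H4 form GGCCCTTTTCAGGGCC by 7.

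The promoters of 2 H2A genes with opposite behaviour are shown next. Both are RefSeq windows on GRCm38.p6 from 250 bases before to 50 after the gene start, printed on the strand of the H2A gene. Capitals mark 3 motifs, each searched on both strands: the CCAAT box; the TATA motif spelled TATAAA; and the histone octamer, which is spelled ATTTGCAT. Hist1h2ag, which rose in 2-cell embryos, spans chr13:22042900-22043199 on the minus strand, holds CCAAT 5 times and neither of the others, and faces the H2B gene Hist1h2bj across 270 bases.
Hist1h2ag: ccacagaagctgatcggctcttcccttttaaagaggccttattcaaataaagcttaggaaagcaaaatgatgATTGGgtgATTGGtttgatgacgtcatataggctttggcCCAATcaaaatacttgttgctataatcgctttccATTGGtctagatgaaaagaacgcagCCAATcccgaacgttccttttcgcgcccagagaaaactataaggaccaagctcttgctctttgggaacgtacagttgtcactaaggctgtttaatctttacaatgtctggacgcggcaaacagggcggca
Hist1h2aa, which was high in oocytes and fell in 2-cell embryos, spans chr13:23934187-23934486 on the plus strand, holds CCAAT 4 times, TATAAA 2 times and the octamer 1 time, and faces Hist1h2ba across 306 bases.
Hist1h2aa: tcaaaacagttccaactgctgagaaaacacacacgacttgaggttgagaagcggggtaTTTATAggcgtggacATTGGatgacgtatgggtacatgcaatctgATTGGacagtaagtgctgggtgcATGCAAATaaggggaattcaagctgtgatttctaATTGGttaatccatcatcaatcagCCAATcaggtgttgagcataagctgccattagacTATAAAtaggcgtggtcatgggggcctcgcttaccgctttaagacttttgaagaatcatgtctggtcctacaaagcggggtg
CCAAT was present in 85.7% of 63 Hist promoters and in 37.4% of all 32851 promoters of the same length, TATAAA in 55.6% against 13.6%, and the octamer in 22.2% against 1.74%. Within the Hist promoters, the octamer was found in 38.9% of H2A and 41.2% of H2B windows and in none of the H1, H3 and H4 windows. Windows of facing H2A and H2B genes overlap, so the same octamer can count for both types, and these shares are not independent. These are matches of letters, and binding was not measured.

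Total counts ranged from 3.62 M (het transcriptome library 1) to 50.49 M in GV libraries and from 5.6 M to 40.38 M in embryo libraries. Eif4enif1 itself lay at 87.3 to 149.9 CPM in the 4 het GV libraries and at 217 to 312 CPM in the 4 WT ones. In 1-cell libraries it was 69.2 to 72.1 CPM in het and 134 to 178 CPM in WT. Het 1-cell libraries 1 and 3 stood apart: their highest count per kb of exon over all genes of at least 300 bases was 2255 and 2614, against 203869 to 282174 in the other 4 1-cell libraries, so the counts of called members, H1foo and Npm2 are also given without them. Arrested library 1 differed from arrested libraries 2 and 3: oocyte markers (12 genes) summed to 18503 CPM against 6255 and 6802, blood markers to 7.44 against 400.1 and 212, and Eif4enif1 lay at 109.6 against 28.5 and 62.7 CPM. WT 1-cell libraries had oocyte marker sums of 15758 to 21031 CPM. Summed granulosa and cumulus markers (20 genes) were higher in het than in WT GV libraries, at 324 to 440 against 119 to 208 CPM in transcriptomes and 726 to 1071 against 206 to 408 CPM in translatomes. Hemoglobin and other blood markers (8 genes) summed to 381 to 553 CPM in WT 2-cell, 175 to 309 in het 2-cell and 7.44 to 400.1 CPM in arrested libraries, against 0.0514 to 0.274 CPM in WT 1-cell libraries. Only 3 to 4 of these 8 genes had any count in WT 2-cell libraries, and 2 passed the filter in embryos. The blood sum thus rests on few genes. The part of other cells in the results below was not tested.

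Levels are in CPM, the count relative to library size after TMM scaling, set separately for GV and embryo tables, so levels set side by side across those tables carry no test. Differences were tested with edgeR's quasi-likelihood test with Benjamini-Hochberg adjustment over all tested genes, and a gene was called at an adjusted p under 0.05. The filter on low counts left 68 members in GV and 62 in embryo libraries. Untested were Hist2h2be, Hist1h3i, Hist1h4m and Hist1h1t in GV, and Hist2h2ab, Hist2h4, Hist3h2bb-ps, Hist1h4j, Hist1h3i, Hist1h4f, Hist1h1d, Hist1h1e, Hist1h1t and Hist1h3a in embryos. Hist1h1t, a testis H1, had no count in any library.

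Between the 1-cell and the 2-cell stage the H2A genes of the Hist1 cluster rose together in WT embryos, while their H2B neighbours did not. Of the 62 tested members, 15 rose and 7 fell, where 28.5% and 17.9% of all tested genes were called higher and lower. The risers were 13 of the 14 Hist1 H2A genes other than Hist1h2aa, with log2 fold changes of 3.41 to 6.13, plus Hist1h4i and Hist1h1b. The exception among these H2A genes was the processed pseudogene Hist1h2al. The median log2 fold change was 0.47 over the tested members and 0.59 over all tested genes.

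Hist1h2ap, a core H2A gene and the most abundant Hist gene of the embryo table, lay at 4.93, 2.50 and 5.29 CPM in the 3 WT 1-cell libraries and at 209.9, 224 and 256 CPM in the 3 WT 2-cell libraries. All 2-cell libraries were far above all 1-cell libraries, and the fitted log2 fold change was 5.76 (SE 0.71, adjusted p = 9.7e-05 by edgeR). Hist1h2ao went from 4.18, 1.86 and 3.24 CPM to 144, 159 and 195 CPM (log2 5.75, SE 0.66). Hist1h2ag went from 2.06, 0.962 and 2.36 CPM to 93.5, 104 and 123 CPM (log2 5.89, SE 0.74). Groups did not overlap for either gene. Hist1h2ah, Hist1h2aj, Hist1h2ae, Hist1h2an and Hist1h2ai, further H2A genes, rose by 5.31 to 5.50 on the log2 scale. Hist1h2ac rose least, from 2.74, 3.91 and 1.49 CPM to 24.4, 29.9 and 32 CPM (log2 3.41, SE 0.75, adjusted p = 0.0024 by edgeR).

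Het embryos showed the same 15 risers. Among them, the het calls of Hist1h4i and Hist1h1b were lost in some fits with 1 library left out (adjusted p up to 0.082 and 0.090 by edgeR). Hist1h2ap lay at 2.03, 1.79 and 4.95 CPM in het 1-cell libraries and at 114, 363 and 489 CPM in het 2-cell libraries, with wide spread but no overlap (log2 6.77, SE 0.75, adjusted p = 0.00017 by edgeR). In total 15 members rose and 7 fell, against backgrounds of 22.8% higher and 13.9% lower. The log2 fold changes of 12 of the 13 H2A risers were 4.98 to 6.92. Hist1h2ak, the other one, had only 2 counts in the het 1-cell group and 931 in the het 2-cell group, a ratio of 272 with a 95% counting interval of 75.1 to 2249. Leaving out het 1-cell libraries 1 and 3 left 14 called members, 11 higher and 3 lower, with the single remaining 1-cell library assumed to vary like the other groups.

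Summed over the 14 genes, Hist1 H2A mRNA was 25.3, 14.4 and 19.9 CPM in WT 1-cell libraries and 709.9, 809 and 922 CPM in WT 2-cell libraries. The sum was 11.8, 8.06 and 23.5 CPM in het 1-cell and 411, 1260 and 1694 CPM in het 2-cell libraries. For the 14 Hist1 H2B genes other than Hist1h2ba the corresponding WT values were 68.6, 44.2 and 65.2 CPM and then 27.1, 22.2 and 29.1 CPM. The ratio of the 2 sums, not corrected for gene length, was 0.306 to 0.370 in WT 1-cell and 26.2 to 36.5 in WT 2-cell libraries. H2A genes made up 36.9 to 45.0% of all Hist CPM in WT 1-cell and 91.4 to 92.4% in WT 2-cell libraries. Reads that match several H2A genes or several H2B genes may enter these sums, and the later ones, more than once, which was not tested.

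**Figure D1:**
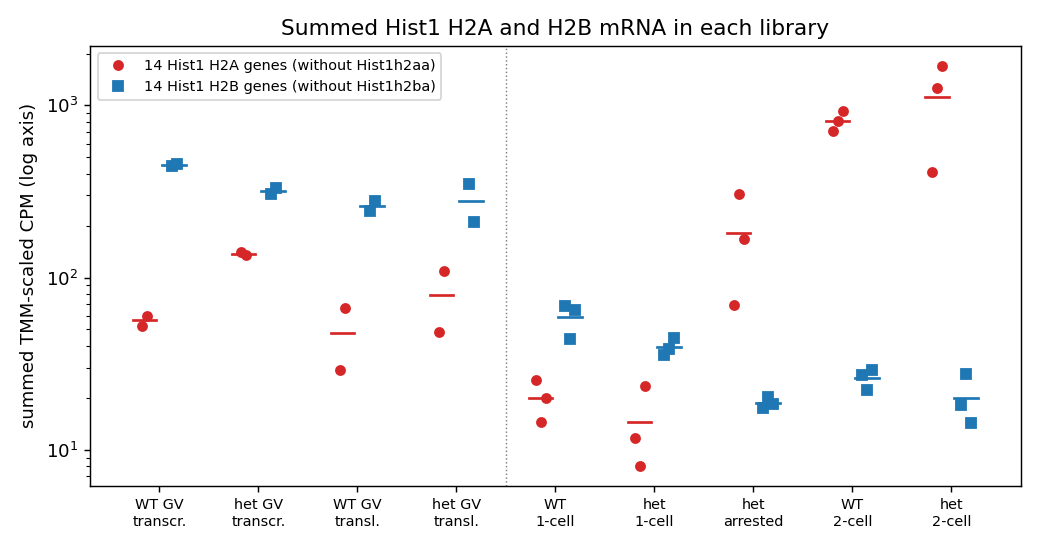
Summed TMM-scaled CPM (log axis) of 14 Hist1 H2A genes (red circles) and 14 Hist1 H2B genes (blue squares) in each of the 23 libraries, with a line at each group mean and GV and embryo tables, scaled separately, on either side of the dotted line. H2B sums lie above H2A sums in the GV and 1-cell libraries, and H2A sums lie above H2B sums in the arrested and 2-cell libraries.

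The contrast held within neighbouring genes. H2A and H2B genes of the clusters often face each other from one shared promoter region, and 12 such pairs with starts 176 to 306 bases apart were found in the Hist1 cluster. Leaving out Hist1h2aa with Hist1h2ba, the H2A partner rose in 11 of 11 pairs in WT and in 11 of 11 pairs in het. None of the 11 H2B partners rose in either genotype, 2 fell in WT (Hist1h2bc and Hist1h2bg) and 1 fell in het (Hist1h2bc). The call of Hist1h2bg was lost whichever of the 6 libraries was left out (adjusted p = 0.062 to 0.13 by edgeR). The median log2 fold change in WT was 5.46 for the H2A partners and -0.95 for the H2B partners. Hist1h2bj, which shares the promoter window printed above with Hist1h2ag, had 4.38, 1.48 and 2.21 CPM in WT 1-cell and 4.53, 5.11 and 4.64 CPM in WT 2-cell libraries. These pairs share a chromosome region and, among the H2A genes and among the H2B genes, sequence, and so are not independent of each other.

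**Figure D2:**
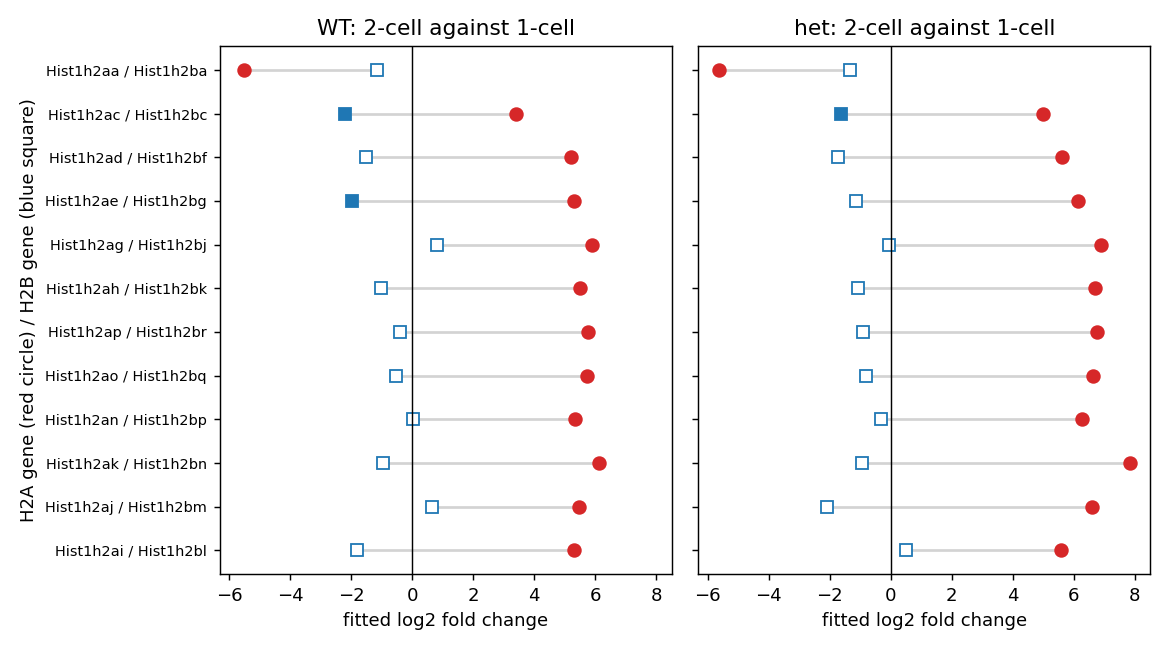
Fitted log2 fold change, 2-cell against 1-cell, of the 12 facing Hist1 H2A (red circles) and H2B (blue squares) genes in WT (left) and het (right); filled symbols passed the test and open ones did not. In 11 pairs the H2A gene lies at 3.41 or above while the H2B gene lies at 0.82 or below, and Hist1h2aa is the H2A gene that fell; the het value of Hist1h2ak rests on 2 counts at the 1-cell stage.

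Near-identical copies make single H2A values uncertain. The median share of 50-base words of the gene found in no other gene was 26.8% over H2A members, 55.9% over H2B, 38.0% over H3, 60.5% over H4 and 98.9% over H1 members. Among the 13 H2A risers it ran from 6.5% in Hist1h2ao to 85.9% in Hist1h2ac, so a read can match several of them. The sources used here do not give whether the authors split such reads or counted them for each gene. Hist2h2aa2, with 0% unshared words, had counts within counting error of its near-identical copy Hist2h2aa1 in 8 of 8 GV libraries. The same held in 0 of 6 2-cell libraries. How shared reads entered the counts was not tested. Hist1h2ac and Hist1h2ae (56.8%) were the risers with over 50% unshared sequence. H1foo and Npm2 were 100% unshared, and Hist1h2aa 97.7%.

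Beyond H2A, 2 genes outside the naming rule rose and were picked out after their values were seen. Hist1h4i, an H4 gene, lay at 0.685, 0 and 0.154 CPM in WT 1-cell and at 8.66, 9.34 and 9.13 CPM in WT 2-cell libraries (log2 5.0, SE 1.26, adjusted p = 0.0053 by edgeR). Hist1h1b, which encodes the somatic linker histone H1.5, had 0 counts in all 6 1-cell libraries. It reached 100 counts over the WT 2-cell group and 79 over the het 2-cell group, which is at least 17.1-fold and at least 15.4-fold higher against a floor of 3 counts per group. Among the called fallers, Hist1h2bc, an H2B gene and the most abundant Hist gene of the GV table, lay at 30.1, 25.6 and 35.3 CPM in WT 1-cell and at 9.67, 3.92 and 6.17 CPM in WT 2-cell libraries (log2 -2.20, SE 0.54). The other WT fallers were Hist1h2bg, Hist2h2bb (log2 -3.29), Hist2h3c1 (log2 -2.21), Hist1h2aa, H1foo and Npm2. The WT calls of Hist2h2bb and Hist2h3c1 were lost in some fits with 1 library left out (adjusted p up to 0.082 and 0.076 by edgeR). In het, Hist1h2bc, Hist2h3c1, Hist1h2aa, H1foo and Npm2 fell as well, along with Hist1h3f (log2 -3.22) and Hist2h2aa2 (log2 -1.86). The het calls of Hist1h2bc, Hist2h3c1 and Hist1h3f were also lost in some such fits (adjusted p up to 0.10, 0.077 and 0.071 by edgeR). The call of Hist2h2aa2 was lost whichever of the 6 libraries was left out (adjusted p = 0.057 to 0.12 by edgeR). Its near-identical copy Hist2h2aa1 was not called (log2 -0.95, SE 0.63, adjusted p = 0.24 by edgeR), and in 2-cell libraries the counts of the copies differed by 36 to 118, beyond counting error in 6 of 6.

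The maternal members were lost over the same step. H1foo lay at 5993, 6111 and 7105 CPM in WT 1-cell libraries and at 18.4, 51.2 and 30.3 CPM in WT 2-cell libraries, a log2 fold change of -7.59 (SE 1.51, adjusted p = 0.0013 by edgeR). Npm2 went from 346, 317 and 248 CPM to 48.5, 47.7 and 53.8 CPM (log2 -2.60, SE 0.53). Hist1h2aa went from 39.4, 36.4 and 38.6 CPM to 0.951, 0.044 and 1.44 CPM (log2 -5.52, SE 1.15). No 2-cell library reached any 1-cell library for these genes. Other oocyte markers moved the same way, with 7 of 12 lower and 0 higher, where 17.9% and 28.5% of all tested genes were called lower and higher. Hist1h2ba, the H2B partner of Hist1h2aa, lay at 2.95, 1.03 and 1.54 CPM and then at 0.285, 1.06 and 1.13 CPM, and did not pass the test (adjusted p = 0.27 by edgeR). Per kb of exon, H1foo stood at 5331 ± 509 CPM in WT 1-cell libraries, Npm2 at 293 ± 48.7, Hist1h2aa at 97.8 ± 4.03, Hist1h2bc at 26.3 ± 4.2 and Hist1h2ap at 8.8 ± 3.15 (SD, n = 3). In WT 2-cell libraries the order by the same measure was Hist1h2ap at 477 ± 49.1, Npm2 at 48.3 ± 3.16, H1foo at 27.7 ± 13.8, Hist1h2bc at 5.7 ± 2.51 and Hist1h2aa at 2.08 ± 1.81, the last pair lying within their spreads of each other.

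**Figure D3:**
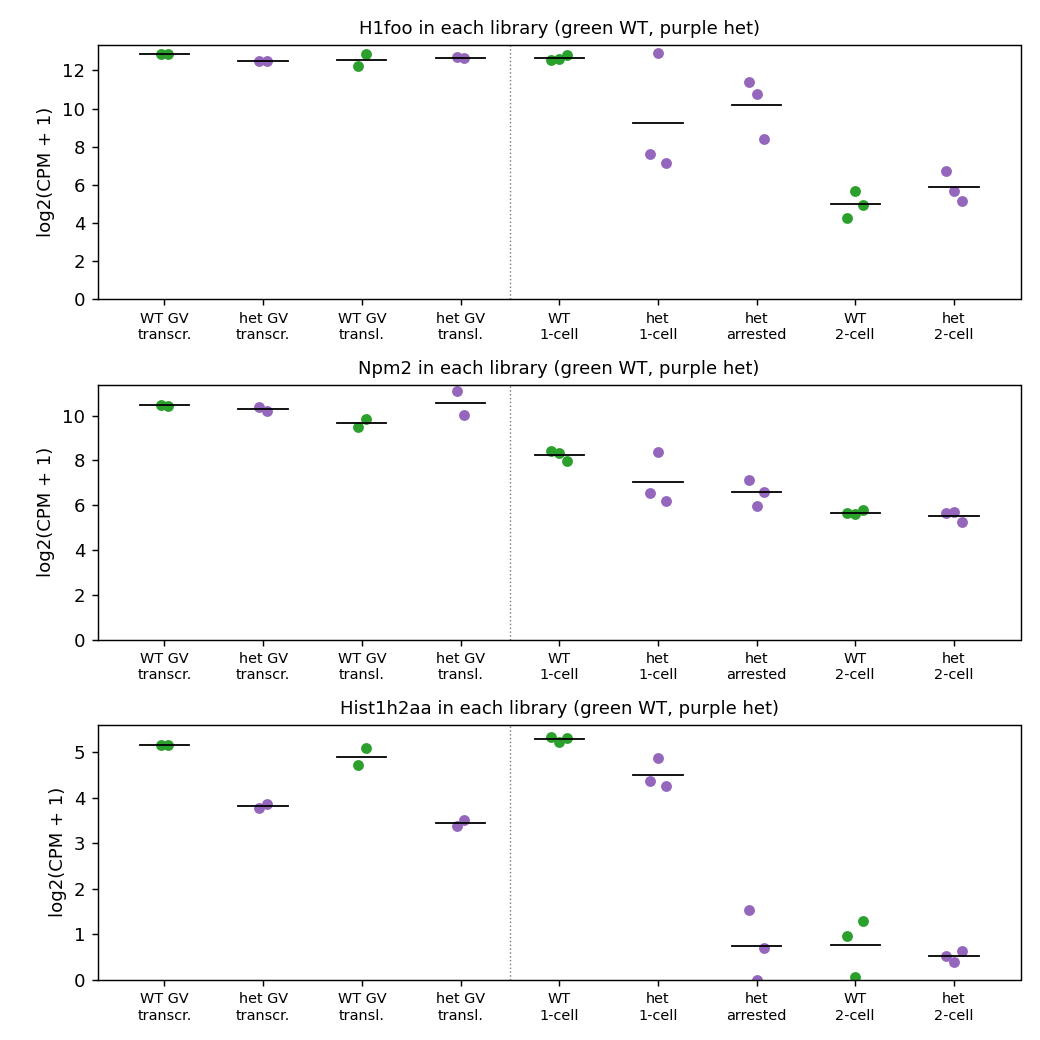
Level of H1foo, Npm2 and Hist1h2aa as log2(CPM + 1) in each library, WT in green and het in purple, with a line at the mean of the plotted values; GV and embryo tables, on either side of the dotted line, were scaled separately. H1foo is high in the GV and WT 1-cell libraries and low in het 1-cell libraries 1 and 3 and in the 2-cell libraries, and Hist1h2aa is lower in the het than in the WT GV libraries.

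In het 2-cell libraries H1foo lay at 105, 51.2 and 34.9 CPM. Het 1-cell libraries gave 195, 7746 and 143 CPM, library 2 within reach of WT and libraries 1 and 3 far below. H1foo counts per kb in libraries 1 and 3 were 1833 and 1875, which is 81.3% and 71.7% of the highest count per kb in the same library. The stage difference in het had a log2 fold change of -5.40 (SE 1.37, adjusted p = 0.0074 by edgeR), without library 2 it was -1.40 with an adjusted p of 0.14, and without libraries 1 and 3 it was -7.08. Npm2 lay at 92.3, 333 and 71.8 CPM in het 1-cell and at 48.9, 51.0 and 36.6 CPM in het 2-cell libraries (log2 -1.86, SE 0.52, adjusted p = 0.012 by edgeR), without library 2 the adjusted p was 0.12, and without libraries 1 and 3 the log2 fold change was -3.01. Hist1h2aa, in contrast, lay at 19.8, 28.3 and 18.3 CPM in het 1-cell and at 0.442, 0.316 and 0.556 CPM in het 2-cell libraries (log2 -5.64, SE 1.17), with no 1-cell library standing apart.

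No member was called between genotypes in embryos. At the 1-cell stage 0 of 62 members passed, and the background was 0% in either direction. No member had an unadjusted p under 0.05, where 889 of all tested genes did, and DESeq2 called 0 members too. The smallest p values belonged to Hist2h2be, with 8 counts in het and 0 in WT, Hist1h2bc (16 ± 0.894 CPM in het against 30.3 ± 4.86 in WT, SD, n = 3, adjusted p = 1 by edgeR) and Npm2 (log2 -0.87, SE 0.51). Npm2 gave 0.15 without het libraries 1 and 3 and -1.89, with an adjusted p of 0.042 by edgeR, without het library 2. H1foo had a log2 fold change of -1.25 (SE 1.15), which was 0.29 without het libraries 1 and 3 and -5.26 with an adjusted p of 0.0076 without het library 2, so both values are decided by which het libraries enter. Without het libraries 1 and 3, 0 members were called, and without het library 2 there were 2. Over the settings run, 0 to 284 of all tested genes were called at the 1-cell stage. At the 2-cell stage 0 of 62 members passed, against backgrounds of 0.00423% higher and 0% lower, and DESeq2 called 0. Again 0 members had an unadjusted p under 0.05, where 1318 of all 23656 tested genes did. The smallest p values there were those of Hist2h2ac (log2 -2.49), Hist1h2bm (46 counts in WT and 3 in het) and Hist1h3f (log2 -1.62). The 2-cell log2 fold change was 0.94 (SE 1.14) for H1foo and -0.14 (SE 0.50) for Npm2.

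The test of the genotype difference in the stage step itself called 0 of 62 members, with a background of 0.00423%. No member had an unadjusted p under 0.05, where 1049 of all 23656 tested genes did. The smallest p values were those of Hist1h2ac (log2 1.58, SE 0.99), Hist1h3f (log2 -2.14, SE 1.34) and Hist2h2ac (log2 -2.59, SE 1.74). For H1foo this difference of differences was 2.19 (SE 1.62) and for Npm2 0.74 (SE 0.71). Without het 1-cell libraries 1 and 3 these were 0.59 and -0.33, with 0 members called. Without het 1-cell library 2, H1foo alone was called (log2 6.19, adjusted p = 0.012 by edgeR).

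Arrested het embryos lay between the 2 stages for the Hist1 H2A genes. Their summed level was 68.9, 305 and 167 CPM, above every 1-cell library (8.06 to 25.3 CPM) and below every 2-cell library (411 to 1694 CPM), with wide spread. The lowest value was that of library 1, which stood apart by its oocyte and blood markers; their part in it was not tested. Against het 1-cell embryos 11 members, all Hist1 H2A genes, were higher and Hist1h2aa was lower, with backgrounds of 9.97% higher and 3.91% lower. The called H2A genes other than Hist1h2ak had log2 fold changes of 3.07 to 4.29. Hist1h2ap lay at 19.8, 79.6 and 45.9 CPM in arrested libraries (log2 4.04, SE 0.66, adjusted p = 0.0025 by edgeR). Without arrested library 1 there were 17 calls, 16 higher and 1 lower. Over the settings run, 0 to 5938 of all tested genes were called in this comparison. Changes in the count of called members were therefore not told apart from changes over all genes. No member was called without het 1-cell libraries 1 and 3, where H1foo gave -2.45 and Npm2 -1.91, which leaves 1 library in that group, or when only the compared groups entered the fit.

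WT 1-cell embryos, whose 3 libraries do not stand apart, gave a like count: 12 Hist1 H2A genes were higher in arrested embryos and 3 members were lower, with backgrounds of 14.1% and 5.44%. The H2A log2 fold changes were 2.91 to 4.34, and the lower members were Hist1h2aa, Hist1h2bc and Npm2. Hist1h2aa lay at 1.88, 0 and 0.618 CPM in arrested libraries, below every 1-cell library and overlapping the 2-cell libraries (log2 -5.56, SE 1.17, adjusted p = 0.0061 by edgeR). Hist1h2bc lay at 5.18, 3.40 and 9.19 CPM (log2 -2.36, SE 0.54). Npm2 lay at 141, 61.8 and 96.3 CPM (log2 -1.61, SE 0.52, adjusted p = 0.04 by edgeR). When only the 2 compared groups entered the fit, 3 members stayed called, and 8 and 9 were called without WT 1-cell library 2 and 3. The 2 comparisons of arrested embryos with 1-cell embryos share the arrested libraries.

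Against het 2-cell embryos, cultured for the same 24 h, 9 members were lower in arrested embryos and 1 was higher, with backgrounds of 4.55% and 3.85%. All 9 were Hist1 H2A genes, with log2 fold changes of -2.73 to -2.50. The higher member was H1foo, at 2666, 1713 and 339 CPM in arrested and 105, 51.2 and 34.9 CPM in het 2-cell libraries (log2 4.62, SE 1.32, adjusted p = 0.043 by edgeR). Every arrested library held more H1foo than every 2-cell library. Against 1-cell embryos H1foo did not pass, with log2 fold changes of -2.03 (SE 1.18) from WT and -0.78 (SE 1.14) from het. The log2 fold change against het 1-cell became 3.22, with an adjusted p of 0.026, when het 1-cell library 2 was left out. Npm2 against het 2-cell and het 1-cell embryos gave 1.13 (SE 0.51) and -0.73 (SE 0.51), neither called. No member stayed called against het 2-cell embryos without het 2-cell library 2, without het 2-cell library 3, or when only the compared groups entered the fit, and 3 stayed without arrested library 1 or 3.

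In GV oocytes, Hist1h2aa was lower in het than in WT in both fractions. Transcriptome libraries held 34.6 and 34.6 CPM in WT and 12.8 and 13.5 CPM in het (log2 -1.39, SE 0.27, adjusted p = 0.019 by edgeR). Translatome libraries held 25.4 and 33.1 CPM in WT and 9.46 and 10.4 CPM in het (log2 -1.56, SE 0.26, adjusted p = 0.0084 by edgeR). WT and het libraries did not overlap in either fraction, and the genotype difference did not differ detectably between fractions (log2 -0.16, SE 0.37, adjusted p = 0.91 by edgeR). Both fractions come from the same oocyte samples and so do not support each other independently. Leaving out 1 library at a time kept the value between -1.74 and -1.31 in translatomes and between -1.41 and -1.35 in transcriptomes. The call was lost without either het library in each fraction and without WT transcriptome library 2. In 1-cell embryos, a separate set of samples, the 3 het libraries (18.3 to 28.3 CPM) also lay below the 3 WT libraries (36.4 to 39.4 CPM), with a log2 fold change of -0.79 (SE 0.95) that was not called. The lower het values came from libraries 1 and 3, which stood apart by their low highest count per kb. Het library 2 lay at 28.3 CPM.

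Hist1h2aa was the only member called between genotypes in translatomes, with backgrounds of 2.61% higher and 2.01% lower. In transcriptomes 3 members were lower and 0 higher, with backgrounds of 1.14% and 1.41%. The other 2 were Hist1h1c and Hist2h2aa2. DESeq2 called 11 members in transcriptomes, 7 higher and 4 lower, and 6.37% of all tested genes in either direction. Without WT translatome library 2 there were 3 calls in translatomes, where 154 to 2113 of all tested genes were called over the settings run. Hist1h1c, which encodes the somatic linker histone H1.2, lay at 6.05 and 4.36 CPM in WT and at 1.5 and 0.961 CPM in het transcriptomes (log2 -2.21, SE 0.49, adjusted p = 0.033 by edgeR). The value of 1.5 CPM comes from het transcriptome library 1, with 3.62 M counts in total, and rests on few reads. Hist2h2aa2 lay at 43.7 and 33.6 CPM in WT and at 11.3 and 12.7 CPM in het transcriptomes (log2 -1.68, SE 0.41, adjusted p = 0.048 by edgeR). Hist2h2aa1, its near-identical copy, gave log2 -1.58 (SE 0.41, adjusted p = 0.056 by edgeR). Counts of the 2 copies differed by 4 to 20 in every GV library, less than the counting error of separate reads in 8 of 8, so they amount to 1 measurement. The calls of Hist1h1c and Hist2h2aa2 were lost when any 1 library of the comparison was left out, with adjusted p of 0.052 to 0.47 and 0.076 to 0.38. With the replicate number as a block, which WT and het samples share only as a number, Hist2h2aa2 had an adjusted p of 0.07 by edgeR.

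By type, the fitted genotype differences in GV transcriptomes ran in different directions. The median log2 fold change was 0.78 over 20 H2A genes, -0.45 over 18 H2B, -0.63 over 11 H3, -0.29 over 12 H4 and -0.60 over 5 H1 genes, against -0.04 over all tested genes. The summed Hist1 H2A level was 52.6 and 60.1 CPM in WT and 141 and 135 CPM in het, while the Hist1 H2B sum was 446 and 455 CPM in WT and 307 and 333 CPM in het. Hist1h2ap lay at 10.6 and 14.2 CPM in WT and 36.3 and 33.4 CPM in het (log2 1.49, SE 0.48, adjusted p = 0.11 by edgeR), apart but not called. None of these 14 Hist1 H2A genes, which leave out Hist1h2aa, passed the test here. Translatomes gave Hist1 H2A sums of 28.9 and 66.7 CPM in WT and 48.6 and 109 CPM in het, which overlapped. In the same het libraries 6 of 19 tested granulosa markers were called higher in transcriptomes and 5 of 19 in translatomes. Of all tested genes, 1.41% and 2.61% were called higher there. The part of the granulosa markers in these values was not tested.

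Among the other abundant GV members, Hist1h2bc lay at 269 and 278 CPM in WT and 189 and 206 CPM in het transcriptomes (log2 -0.47, SE 0.28, adjusted p = 0.39 by edgeR). Hist1h2bg, a further H2B gene, lay at 78.0 and 88.0 CPM in WT and 53.8 and 56.7 CPM in het, and Hist3h2a at 21.2 and 16.7 CPM against 10.3 and 13.1 CPM. Het libraries were lower for these genes, but none passed. H1foo lay at 7455 and 7485 CPM in WT and at 5779 and 5754 CPM in het transcriptomes (log2 -0.37, SE 0.30), and at 4735 and 7479.8 CPM against 6602 and 6408 CPM in translatomes (log2 0.09, SE 0.30). Npm2 lay at 1431 and 1391 CPM in WT and 1352 and 1166 CPM in het transcriptomes (log2 -0.17, SE 0.33), and at 711 and 929 CPM against 2167 and 1048 CPM in translatomes (log2 0.97, SE 0.33, adjusted p = 0.11 by edgeR). Neither was called between genotypes.

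Capture with ribosomes was compared with total mRNA within each genotype. In WT, 9 members were lower in the translatome and 0 higher, where 5.64% and 8.95% of all tested genes were called lower and higher. The fit behind these calls did not pair the fractions of one oocyte sample. They were 7 H2B genes, the H4 gene Hist1h4h and the pseudogene Hist1h2al. Hist1h2br lay at 14.7 and 13.7 CPM in transcriptomes and 6.22 and 3.33 CPM in translatomes (log2 -1.55, SE 0.36, adjusted p = 0.014 by edgeR). Hist1h4h lay at 8.78 and 7.20 CPM and then at 2.81 and 2.56 CPM (log2 -1.57, SE 0.37). Hist1h2bj, Hist1h2bk, Hist1h2bn, Hist1h2bp, Hist1h2bf and Hist1h2be, all H2B genes, had log2 fold changes of -1.66 to -1.14. Unshared sequence made up 11.3% of Hist1h2br, 13.55% of Hist1h2bn, 25.76% of Hist1h2bk, 34.22% of Hist1h2bf and 40.58% of Hist1h2bj. It made up 55.86% of Hist1h2bp and 83.66% of Hist1h2be. A read can match several of these H2B genes, so their 7 calls are not independent of each other. The median over the 68 tested members was -0.89, against -0.04 over all tested genes. By type the medians were -1.40 for H4, -1.25 for H2B, -0.78 for H3, -0.56 for H2A and -0.18 for H1. No member stayed called without WT transcriptome library 1 or without WT translatome library 2, and 3 stayed without WT transcriptome library 2 or when only the compared groups entered the fit. H1foo (log2 -0.29, SE 0.30) and Npm2 (log2 -0.78, SE 0.33) were not called. Of 19 tested granulosa markers, 8 were higher in the WT translatome and 0 lower; their part in these values was not tested.

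**Figure D4:**
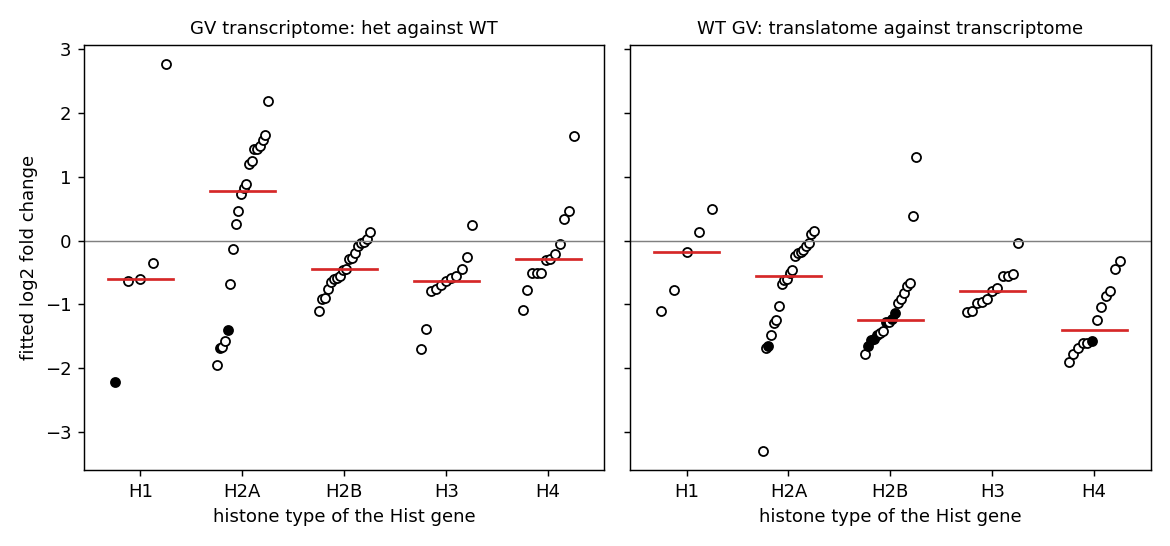
Fitted log2 fold change of each tested Hist gene by histone type, for het against WT in GV transcriptomes (left) and for translatome against transcriptome in WT GV oocytes (right); filled points passed the test, open ones did not, and red lines are medians. The H2A median lies at 0.78 on the left while the other types lie below 0, and on the right the H2B and H4 medians lie at -1.25 and -1.40.

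In het oocytes 1 member was higher and 1 lower in the translatome, with backgrounds of 6.19% and 1.91%. Hist1h1a, an H1 gene, lay at 2.00 and 1.44 CPM in transcriptomes and at 0.440 and 0.285 CPM in translatomes (log2 -2.14, SE 0.60, adjusted p = 0.043 by edgeR). Hist1h1c lay at 1.5 and 0.961 CPM and then at 4.42 and 2.89 CPM (log2 1.71, SE 0.49, adjusted p = 0.047 by edgeR). Het transcriptome library 1 held only 3.62 M counts, so its values of 2.00 and 1.5 CPM rest on few reads. With the oocyte sample as a block, since both fractions of a sample carry one specimen number, only 1 call remained and Hist1h1c had an adjusted p of 0.052. Both calls were lost when any 1 of the 4 libraries was left out. H1foo (log2 0.17, SE 0.30) and Npm2 (log2 0.35, SE 0.33) were not called. The median was -0.65 over the members and 0.04 over all tested genes.

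The test of the genotype difference in the translatome to transcriptome ratio called 0 of 68 members, with a background of 0.0134%. At an unadjusted p under 0.05 there were 4 of 68 members, where 1999 of all 22409 tested genes were, and DESeq2 called 0 members. The smallest p values were those of Hist1h2al (log2 1.94, SE 0.74), Hist1h1c (log2 1.58, SE 0.63) and Npm2 (log2 1.14, SE 0.46), with adjusted p of 0.5 to 0.52 by edgeR. H1foo gave 0.47 (SE 0.42).

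Genes that work with histones were followed as 3 lists, chosen with earlier results of these data known. Among replacement histone variants, which enter chromatin outside replication, 5 of 12 tested rose and 1 fell from WT 1-cell to WT 2-cell embryos, where 28.5% of all tested genes rose and 17.9% fell. H2afz, which encodes the variant H2A.Z, went from 93.2 ± 3.33 to 2983 ± 546 CPM (SD, n = 3, log2 5.0, adjusted p = 0.00011 by edgeR), and H2afj from 3.81 ± 0.901 to 144 ± 3.61 CPM (log2 5.24). In het embryos 5 rose and 0 fell, against 22.8% and 13.9% of all tested genes, H2afz among the risers (log2 5.01). In arrested embryos 3 were higher than in WT 1-cell (14.1% of all tested genes) and 4 lower than in het 2-cell embryos (4.55%), with H2afz at 634 ± 355 CPM. In GV oocytes H2afz was higher in het in both fractions, at 272 ± 19.5 against 82.3 ± 15 CPM in transcriptomes (SD, n = 2, log2 1.72, adjusted p = 0.014 by edgeR) and at 211 ± 76.5 against 83.8 ± 23.2 CPM in translatomes (log2 1.33, adjusted p = 0.03).

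Of 15 genes for histone mRNA processing and transcription, 5 rose and 6 fell from WT 1-cell to WT 2-cell embryos, against the same 28.5% and 17.9% of all tested genes, so the share that rose was near the background. Slbp itself, abundant in 1-cell embryos, fell from 9181 ± 2286 to 706 ± 52.4 CPM (SD, n = 3, log2 -3.70, adjusted p = 0.028 by edgeR). Smaller p values belonged to Ncbp1, a nuclear cap-binding subunit, which rose from 0.0442 ± 0.0384 to 65.3 ± 5.14 CPM, and to Cpsf2, a subunit of the cleavage complex, which fell from 67.7 ± 13.8 to 18.4 ± 3.11 CPM. Hinfp, a transcription factor of H4 genes, rose (log2 3.78) and Eri1, a nuclease that trims the stem-loop end, fell (log2 -1.54). Het embryos gave 3 risers and 4 fallers, against 22.8% and 13.9%. Between GV genotypes, Zfp473, which encodes a U7 snRNP-associated zinc finger protein, was lower in het translatomes (18.7 ± 1.40 against 42.4 ± 2.05 CPM, SD, n = 2, log2 -1.18, adjusted p = 0.043 by edgeR).

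Of 28 tested histone chaperones, 5 rose and 11 fell from WT 1-cell to WT 2-cell embryos, and 5 rose and 6 fell in het. All tested genes rose in 28.5% and fell in 17.9% of cases in WT, and in 22.8% and 13.9% in het. Set, a chaperone and phosphatase inhibitor, rose from 39.7 ± 5.69 to 1143 ± 184 CPM in WT (SD, n = 3, log2 4.85, adjusted p = 0.00023 by edgeR) and Anp32e, which removes H2A.Z, rose from 7.72 ± 2.26 to 63.5 ± 12.7 CPM (log2 3.04). Nap1l4 fell by 2.01 and Hat1, a histone acetyltransferase subunit, fell by 2.07 on the log2 scale. In GV transcriptomes 2 of 29 chaperones were higher in het (1.41% of all tested genes), among them Set (59.7 ± 0.319 against 19.9 ± 1.57 CPM, SD, n = 2, log2 1.59, adjusted p = 0.021 by edgeR). In WT oocytes 6 of 29 were higher in the translatome (8.95% of all tested genes) and 0 lower, led by Rbbp4, a subunit of CAF-1 and other complexes (log2 1.70), and Nap1l4 (log2 1.6).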

How the data were processed

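The authors deposited raw read counts per gene in 2 tables, 1 for 8 GV and 1 for 15 embryo libraries, each with 56196 genes. Per the submitters' processing notes the tools were HISAT2 2.1.0, Trim Galore 0.6.4 and featureCounts 1.6.5, with build mm10; the sources used here do not give annotation release, strand setting or multi-mapping rule. Total counts were 3.62 M to 50.49 M (GV) and 5.6 M to 40.38 M (embryo). Per the labels' protocols, full-length cDNA was amplified and no molecular identifier is named, so intervals and floors cover counting error only. Every column had a sample.

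The tables were joined by gene ID. Each was fitted whole in edgeR 4.0.16 (R 4.3.3; filterByExpr, TMM, glmQLFTest, groups only, no block), with 22409 GV and 23656 embryo genes tested, adjusted by Benjamini-Hochberg; the scripts were tested on simulated data. The standard error is the log2 fold change over the square root of F. DESeq2 1.42.0, RLE scaling, no filter, only the compared groups, a replicate block, each library left out and het 1-cell libraries 1 and 3 left out were the alternatives. The labels do not tie replicates to separate animals; p-values then cover only sample-to-sample spread, possibly technical. Both fractions of a GV sample carry one specimen number in the labels; their deviations correlated at 0.26 (het) and 0.058 (WT) over 9075 genes.

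Members, lists and tests were chosen with earlier results of these data known. Named were H1foo and Npm2, the 10 members highest in each table, per comparison up to 8 called members a direction at a mean of at least 1 CPM or, with none called, the 3 smallest p, and up to 2 called list genes a direction at 10 CPM or more; further genes are named from the values seen. Exon lengths, 50-base words and the stem-loop consensus were read from GENCODE vM21 transcripts (mm10), and promoters from RefSeq (GRCm38.p6), where 62 Hist genes and H1foo were matched. Fold changes against a group at 0 use a floor of 3 counts per group.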

Additional observations from a re-analysis of the deposited data

How the results depend on the processing

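Between WT stages, 19 to 24 members were called in either direction, 14 to 17 of them higher. The 13 Hist1 H2A risers kept their calls in all alternatives run, with adjusted p of at most 0.016 by edgeR when 1 library was left out. For named genes, 1014 alternative values kept direction and side of the threshold, 244 lost the call, 6 gained it and 7 changed sign. Calls in GV libraries (2 a group) and in arrested embryos depended on the settings, and the cause was not tested. Over all tested genes, calls moved as well. They numbered 154 to 2113 in GV translatomes, 69 to 1554 in transcriptomes, 1195 to 4220 for WT fractions and 1 to 3033 for het fractions. For arrested embryos they numbered 0 to 5938 against het 1-cell, 579 to 7477 against WT 1-cell and 0 to 4988 against het 2-cell embryos. Between stages they numbered 7971 to 13424 in WT and 2017 to 10832 in het. Between genotypes they numbered 0 to 284 at the 1-cell and 0 to 121 at the 2-cell stage. Changes in member counts between settings were not told apart from these changes. Shallow libraries and shared sequence limit single genes.

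Without the filter on low counts, 3 members were called between genotypes in GV translatomes and 11 in transcriptomes; DESeq2 gave 2 and 11, and 17 for arrested against het 2-cell embryos. With only the compared groups, calls numbered 8 in GV transcriptomes, 3 for WT fractions, 4 for het fractions, 0 for arrested against het 1-cell, 3 against WT 1-cell and 0 against het 2-cell embryos. For het fractions RLE scaling gave 1 and DESeq2 gave 4. Without het 1-cell libraries 1 and 3, 14 members were called between het stages and 0 in arrested against het 1-cell embryos. There H1foo and Npm2 at the 1-cell stage turned to 0.29 and 0.15, and Npm2 in the stage-by-genotype test to -0.33.

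Leaving out 1 library at a time gave 0 to 3 calls in GV translatomes, 0 to 1 in transcriptomes, 0 to 7 for WT fractions and 0 for het fractions. In embryos it gave 0 to 2 at the 1-cell stage, 0 to 1 in the stage-by-genotype test, 15 to 20 between het stages, 8 to 17 for arrested against het 1-cell, 8 to 18 against WT 1-cell and 0 to 14 against het 2-cell embryos. H1foo between GV translatomes ranged from -0.20 to 0.51 and Npm2 between het fractions from -0.24 to 0.80. Arrested against het 1-cell embryos, H1foo ranged from -1.44 to 3.22 and Npm2 from -1.15 to 0.28.

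The replicate block gave 1 call for het fractions. Embryo libraries share only a number: same-number deviations correlated at -0.40 to 0.26 over 30 pairs, and the best match had the same number in 17 of 60 combinations. The block there gave 8, 10 and 7 calls for arrested against het 1-cell, WT 1-cell and het 2-cell embryos, and 21 for each stage comparison.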
